A study of Mus musculus with 8 samples.

Results

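The circadian clock genes described here are Per1, Per2, Per3, Cry1, Cry2, Arntl, Nr1d1, Nr1d2, Bhlhe40 and Dbp. They were listed by name as established parts of the mammalian clock, but with earlier results of these data known. All 10 were found by symbol among the 35852 rows of the deposited gene table, and all 10 were among the 13272 genes with enough counts to be tested. RNA was sequenced from bEnd3, an immortalised line of mouse brain endothelial cells. The corticosterone group is 4 libraries from bEnd3 cells given 5 µM corticosterone, the main glucocorticoid hormone of mice, for 24 h. The medium group is 4 libraries from the same line labelled as treated with medium for 24 h. Cells of both groups were seeded in DMEM with 10% FCS and cultured overnight first, the labels name no vehicle, and the treatment protocol entered for the medium samples also names corticosterone. All cells came from 1 line, and the labels do not say whether replicates were separate cultures, so the p-values cover the spread among these libraries, which may be technical.

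The mammalian clock is a feedback loop of transcription. The proteins of Arntl (also called Bmal1) and Clock pair up and switch on the Period, Cryptochrome, Nr1d, Bhlhe40 and Dbp genes through E-box sequences. Period and Cryptochrome proteins then block that pair, while the REV-ERB proteins made from Nr1d1 and Nr1d2 repress Arntl and the ROR proteins activate it. Glucocorticoids are known to set the phase of clocks outside the brain's central pacemaker, and Per1 is a known direct target of the glucocorticoid receptor.

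Estimated counts per library came to 27.7 to 33.2 M (M is 1000000 counts) in corticosterone libraries and 19.7 to 46.2 M in medium libraries. Corticosterone replicates 1 and 2 stood apart from the rest, as their quantification set the effective length to the full transcript length plus 1, for 100% of 61001 transcripts no shorter than 1000 nt, against 0% in the other 6 libraries. Their gene counts stood apart as well, with a chi-square per degree of freedom of 95.48 between the 2 and of 44.14 to 61.96 against corticosterone replicates 3 and 4, where replicates 3 and 4 gave 3.399 and pairs of medium libraries 2.161 to 4.751. The clock genes were therefore also compared in the 6 libraries without these 2, called the 6-library comparison below. Summed markers of endothelium, all 8 of them at 1 CPM (count per 1000000) or more, were 7600 to 7850 CPM in corticosterone libraries and 7100 to 7590 CPM in medium libraries. Single endothelial markers went both ways, as Cdh5, Tek, Tie1 and Cldn5 rose, Pecam1, Kdr and Erg fell, and Emcn did not pass the test. Averaged over all 8 libraries, none of the markers of pericytes and smooth muscle (6 genes), astrocytes, neurons, leukocytes or epithelium (3 genes each) reached 1 CPM, and Aqp4 (astrocytes) and Syt1 (neurons) were at 0 counts. The 6 pericyte and smooth muscle markers summed to 1.51 to 2.15 CPM in corticosterone libraries and 1.58 to 3.12 CPM in medium libraries. Of them 2 fell, Pdgfrb (0.589 CPM with corticosterone, 1.02 CPM in medium) and Acta2 (0.652 CPM with corticosterone, 1.27 CPM in medium). The others were too low to test, among them Myh11, which averaged 0.518 CPM with corticosterone and 0.223 CPM in medium. Astrocyte markers summed to 0.506 to 0.65 CPM with corticosterone and 0.139 to 0.424 CPM in medium. Neuron markers summed to 0.121 to 0.253 CPM with corticosterone and 0 to 0.0424 CPM in medium. The sums for leukocytes and epithelium overlapped between groups. The part of such cells in the clock results was not tested. Fkbp5, a glucocorticoid-induced co-chaperone, averaged 269 ± 3.06 CPM in corticosterone libraries and 39.4 ± 1.92 CPM in medium libraries (SD, n = 4 each), 6.83-fold higher.

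With corticosterone, 5 clock genes rose (Per1, Bhlhe40, Arntl, Per2 and Nr1d1), 4 fell (Per3, Dbp, Cry2 and Cry1), and Nr1d2 did not pass the test. The call needs an adjusted p under 0.05 in edgeR's quasi-likelihood test, with Benjamini-Hochberg adjustment over all 13272 genes, and every adjusted p of a gene below is of this kind. Of all genes tested, 40.1% passed, with 19.5% higher and 20.6% lower, so a call by itself was common in these data. The sizes stood further from the background. The 10 clock genes had a median absolute log2 fold change of 0.56, against 0.139 over all genes tested. As the list was drawn up with earlier results of these data known, this contrast is descriptive. The changes of 4 clock genes (Per1, Per3, Bhlhe40 and Arntl) were at least 1.5-fold, as were those of 7.87% of all genes tested, and 2 of them (Per1 and Per3) were at least 2-fold, against 3.75% of all genes tested. The groups did not overlap in any library for 9 of the 10 genes, 5 of them higher and 4 lower, and the same held for 39.9% of all genes tested (19.3% higher and 20.6% lower). In the 6-library comparison 5 clock genes rose and 3 fell, and Cry1 was the one whose call was lost. In that comparison 36.4% of all genes tested passed. RNA was taken from whole cultures at 1 time, so a change in every cell, a change in some of the cells, and a shift in the phase or the amplitude of a rhythm cannot be told apart.

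**Figure D1:**
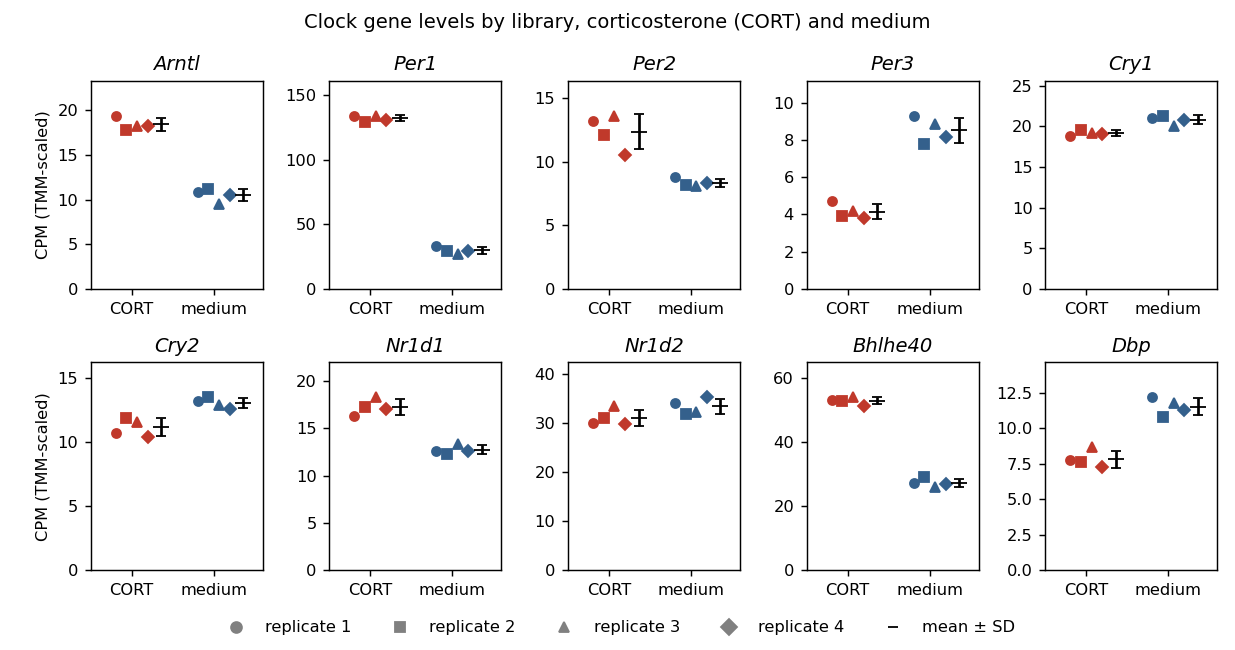
Levels of the 10 clock genes in every library, in counts per 1000000 (CPM) of the TMM-scaled library (y axes from 0, each gene on its own scale). Points are libraries, marked by replicate, and bars are mean ± SD of 4 libraries; for every gene except Nr1d2 the 4 corticosterone points lie all above or all below the 4 medium points.

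The upstream sequences of 3 clock genes are shown because they hold matches to the elements through which clock proteins act on clock genes. They are the 250 bases before the RefSeq start on GRCm38.p6, written 5′ to 3′ on the gene's strand, with matches in capitals. The Per1 sequence (chr11:69098699-69098948, plus strand) lies before the start of the transcript Per1-201 and within the span of Per1-202, which starts further upstream. The Cry1 sequence is chr10:85185055-85185304 and the Per3 sequence is chr4:151044666-151044915, both on the minus strand.
Per1: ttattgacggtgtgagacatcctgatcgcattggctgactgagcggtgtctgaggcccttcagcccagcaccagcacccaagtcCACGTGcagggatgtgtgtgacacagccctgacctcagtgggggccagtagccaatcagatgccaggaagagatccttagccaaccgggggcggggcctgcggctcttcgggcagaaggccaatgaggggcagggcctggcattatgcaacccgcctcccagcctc
Cry1: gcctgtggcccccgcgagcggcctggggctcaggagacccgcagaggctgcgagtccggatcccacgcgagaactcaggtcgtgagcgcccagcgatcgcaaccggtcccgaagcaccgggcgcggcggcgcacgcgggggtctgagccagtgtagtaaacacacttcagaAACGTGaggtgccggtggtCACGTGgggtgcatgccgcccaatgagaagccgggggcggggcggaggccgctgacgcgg
Per3: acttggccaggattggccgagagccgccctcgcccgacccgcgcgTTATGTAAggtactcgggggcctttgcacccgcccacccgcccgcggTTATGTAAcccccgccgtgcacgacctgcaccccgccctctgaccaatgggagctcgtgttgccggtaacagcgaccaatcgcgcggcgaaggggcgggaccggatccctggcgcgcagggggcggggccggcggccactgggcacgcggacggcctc
The Per1 capitals mark an E-box (CACGTG) whose first base is at -166, with -1 as the last base before the start. The Cry1 capitals mark an E-box at -60 and, at -79, an E′-box (CACGTT, here read on the other strand as AACGTG). The Per3 capitals mark 2 D-boxes (TTANGTAA), the element bound by the Dbp protein, at -205 and -158. Both strands were searched. Over the same 250 bases of all 32851 RefSeq promoter entries, an E-box was found in 6.02%, an E′-box in 3.85% and a D-box in 2.06%. Entries existed for 8 of the 10 genes and gave 10 windows; Per2 and Bhlhe40 were not matched. Cry2 held an E′-box at -166 and Nr1d1 one at -28. The windows of Arntl, Nr1d2 and Dbp and a second Per1 window held none of the motifs searched. No window held a cAMP response element (TGACGTCA, in 1.55% of entries), the core of a ROR and REV-ERB element (TAGGTCA, in 2.23%) or a palindrome of the glucocorticoid receptor type (searched by its consensus and found in 0.387%). A match describes the letters and is not evidence of binding, and a window without one says nothing of the factor.

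Arntl, the limiting partner of the activating pair, rose with corticosterone, while its partner Clock did not pass the test. Arntl (ENSMUSG00000055116.8, chr7:113207465-113314126, plus strand) was at 19.4, 17.8, 18.2 and 18.3 CPM in corticosterone replicates 1 to 4, against 10.8, 11.2, 9.55 and 10.5 CPM in medium replicates 1 to 4. The lowest corticosterone library was well above the highest medium library. The log2 fold change was 0.81 ± 0.058 (SE), a 1.75-fold rise with an adjusted p of 2.51e-07, and it was 0.79 in the 6-library comparison. Clock averaged 168 ± 2.54 CPM in corticosterone libraries and 164 ± 3.00 CPM in medium libraries (SD, n = 4 each; log2 fold change 0.029, adjusted p = 0.363). The log2 ratio of Arntl to Clock within a library was -3.19 ± 0.0657 in corticosterone libraries and -3.97 ± 0.077 in medium libraries (SD, n = 4 each). This ratio was higher in all 4 corticosterone libraries, by 0.78 (two-sided exact permutation test, p = 0.02857). Npas2, a relative of Clock that can stand in for it, had 0 to 3 counts in any library and was not tested.

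The 3 Period genes, which encode the repressors that carry the clock's negative feedback together with the cryptochromes, moved by different amounts and in different directions. Per1 rose the most of the 10 clock genes, Per2 rose less, and Per3 fell. Per1 (ENSMUSG00000020893.17, chr11:69095217-69109960, plus strand) was at 134, 129, 134 and 131 CPM in corticosterone replicates 1 to 4, against 33.1, 29.5, 27.0 and 29.5 CPM in medium replicates 1 to 4. Libraries of a group lay close together and the groups were far apart. The log2 fold change was 2.14 ± 0.053 (SE; 95% interval 2.03 to 2.26), a 4.42-fold rise with an adjusted p of 3.65e-10, and it was again 2.14 in the 6-library comparison. Among all 13272 genes tested, Per1 had the rank of 152 by size of rise and 113 by p-value.

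Per2 (ENSMUSG00000055866.9, chr1:91415982-91459324, minus strand) was at 13.2, 12.1, 13.6 and 10.5 CPM in corticosterone libraries, against 8.77, 8.17, 8.09 and 8.29 CPM in medium libraries. Every corticosterone library was above every medium library, and the corticosterone libraries were the more spread, with a coefficient of variation of 11.1% against 3.68% in medium libraries. Its log2 fold change was 0.57 ± 0.08 (SE), a 1.48-fold rise (adjusted p = 9.82e-05), and 0.54 in the 6-library comparison. Per3 (ENSMUSG00000028957.12, chr4:151003652-151044665, minus strand) was at 4.72, 3.92, 4.16 and 3.79 CPM in corticosterone libraries, against 9.30, 7.80, 8.84 and 8.15 CPM in medium libraries. All 4 corticosterone libraries were below all 4 medium libraries, on 105 to 439 counts per library. Per3 fell to 0.487 of the medium level (log2 fold change -1.04 ± 0.094, SE; adjusted p = 2.06e-06), the largest fall among the 10 clock genes, and the log2 fold change was -1.1 in the 6-library comparison. Its upstream sequence is the one shown above with 2 D-boxes.

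Ratios within a library do not depend on how libraries are scaled, so 8 pairs of related clock genes were compared in this way, with p-values adjusted over the 8 pairs. With 4 libraries against 4, the smallest p that the two-sided exact permutation test can give is 0.02857, and 7 of the 8 pairs reached it (adjusted p = 0.0327 each, all 4 corticosterone libraries on one side of all 4 medium libraries). No share over all pairs of genes was computed to set beside this count. The groups did not overlap for 39.9% of single genes tested, and every pair holds a clock gene of that kind. The pairs were chosen with earlier results of these data known. In Per1/Per3, Per2/Per3 and Dbp/Nfil3 each gene alone separated the groups, in opposite directions. The smallest p of those pairs thus followed from the gene levels and is not separate evidence. The log2 ratio of Per1 to Per3 was 5.00 ± 0.121 in corticosterone libraries and 1.81 ± 0.134 in medium libraries (SD, n = 4 each), a 9.15-fold difference. The ratio of Per1 to Per2 differed 3.01-fold and that of Per2 to Per3 3.04-fold, both higher with corticosterone. In medium libraries Per2 and Per3 were near parity in CPM (log2 ratio -0.03 ± 0.0912), while in corticosterone libraries Per2 exceeded Per3 (1.57 ± 0.116). The 3 Period ratios shifted by 1.59 (Per1 to Per2), 3.19 (Per1 to Per3) and 1.6 (Per2 to Per3) on the log2 scale in all libraries, and by 1.63, 3.26 and 1.62 in the 6-library comparison.

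**Figure D2:**
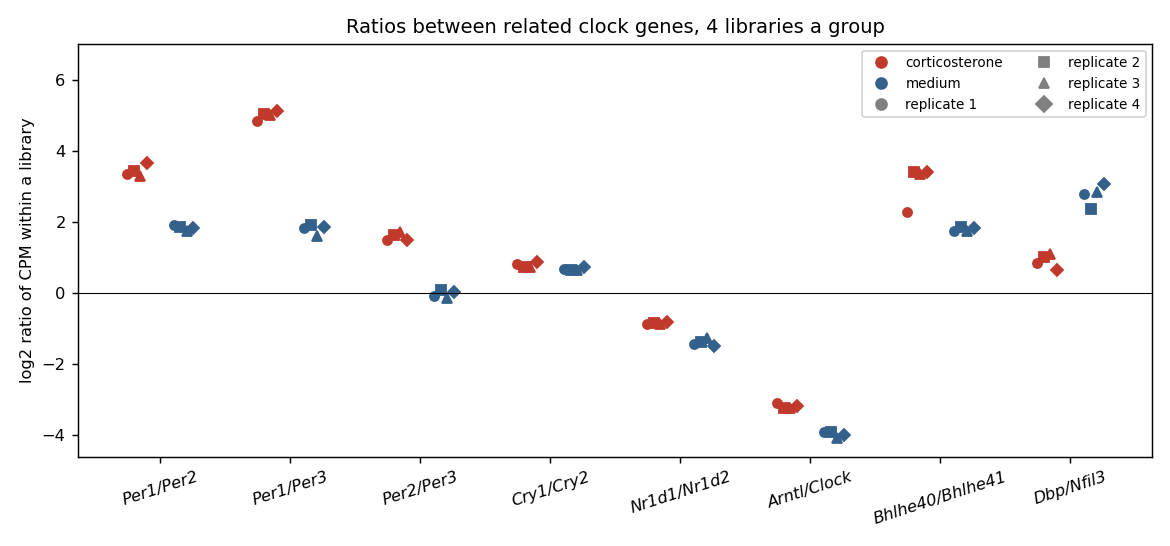
Log2 ratio of CPM between 8 pairs of related clock genes within each library (y axis), with corticosterone libraries to the left of medium libraries in each pair and symbols for the replicate number. The groups are apart in every pair except Cry1/Cry2, and corticosterone replicate 1 lies below its group in Bhlhe40/Bhlhe41.

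The cryptochromes, which join the Period proteins in the repressor complex, changed little. Cry2 (ENSMUSG00000068742.11, chr2:92403646-92434043, minus strand) was at 10.7, 11.9, 11.6 and 10.4 CPM in corticosterone libraries, against 13.2, 13.5, 12.9 and 12.6 CPM in medium libraries. The groups did not overlap, and Cry2 fell to 0.854 of the medium level (log2 fold change -0.23 ± 0.059, SE; adjusted p = 0.00844), with -0.24 in the 6-library comparison. Cry1 (ENSMUSG00000020038.10, chr10:85131700-85185064, minus strand), whose upstream sequence with an E-box and an E′-box is shown above, was at 18.8, 19.6, 19.2 and 19.0 CPM in corticosterone libraries, against 21.0, 21.3, 20.0 and 20.8 CPM in medium libraries. Again no corticosterone library reached the lowest medium library, but the gap was narrow. Cry1 fell to 0.921 of the medium level (log2 fold change -0.12 ± 0.041, SE; 95% interval -0.21 to -0.03; adjusted p = 0.0359). This call was the weakest of the 9, and the 6-library comparison gave an adjusted p of 0.112 with the same log2 fold change, -0.12. The log2 ratio of Cry1 to Cry2 was 0.78 ± 0.0732 in corticosterone libraries and 0.67 ± 0.0387 in medium libraries (SD, n = 4 each), groups that overlapped and whose difference of 0.11 did not pass the two-sided exact permutation test (p = 0.05714, adjusted p = 0.0571).

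The REV-ERB genes, which encode nuclear receptors that repress Arntl, were uneven: Nr1d1 rose and Nr1d2 did not pass the test. Nr1d1 (ENSMUSG00000020889.11, chr11:98767932-98775333, minus strand) was at 16.3, 17.3, 18.3 and 17.0 CPM in corticosterone libraries, against 12.6, 12.3, 13.4 and 12.6 CPM in medium libraries. The groups were apart, with a log2 fold change of 0.44 ± 0.051 (SE), a 1.35-fold rise (adjusted p = 2.13e-05), and 0.48 in the 6-library comparison. Nr1d2 (ENSMUSG00000021775.11, chr14:18204054-18239127, minus strand) was at 29.9, 31, 33.3 and 29.8 CPM in corticosterone libraries, against 34.0, 31.8, 32.2 and 35.2 CPM in medium libraries. Corticosterone replicate 3 lay inside the medium range, and the log2 fold change was -0.10 ± 0.048 (SE; 95% interval -0.21 to 0.00; adjusted p = 0.108). Without corticosterone replicate 3 the log2 fold change of Nr1d2 was -0.14 and passed (adjusted p = 0.0351). The log2 ratio of Nr1d1 to Nr1d2 was -0.85 ± 0.0311 in corticosterone libraries and -1.39 ± 0.0898 in medium libraries (SD, n = 4 each), a difference of 0.54 (two-sided exact permutation test, p = 0.02857). Arntl and its repressor Nr1d1 were thus both higher with corticosterone. Rorb, of the ROR family that activates Arntl, was at 6.46, 4.62, 6.40 and 6.10 CPM in corticosterone libraries, against 1.34, 1.25, 1.16 and 1.46 CPM in medium libraries. It rose 4.50-fold (log2 fold change 2.17, adjusted p = 8.46e-08), and the groups were far apart. On the log2(TPM + 0.5) scale the log2 fold change of Rorb was 1.22, where its mean in medium libraries, 0.213 TPM, lay below the added 0.5. Its counts were low, at 23 to 63 per medium library.

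Bhlhe40, which encodes DEC1, a repressor that competes for E-boxes, rose. Bhlhe40 (ENSMUSG00000030103.11, chr6:108660629-108666925, plus strand) was at 53.1, 52.8, 53.9 and 51.2 CPM in corticosterone libraries, against 27.1, 29.0, 26.0 and 27.0 CPM in medium libraries. The lowest corticosterone library was far above the highest medium library. The log2 fold change was 0.95 ± 0.039 (SE), a 1.93-fold rise (adjusted p = 1.28e-09), and it was again 0.95 in the 6-library comparison. Its relative Bhlhe41, which encodes DEC2, was at 10.9, 5.02, 5.28 and 4.84 CPM in corticosterone libraries, against 8.03, 8.02, 7.84 and 7.56 CPM in medium libraries. Corticosterone replicate 1 was the highest of all libraries and the other 3 corticosterone libraries were the lowest. Bhlhe41 did not pass the test over all libraries (log2 fold change -0.27, adjusted p = 0.5), but it fell when corticosterone replicate 1 was left out (-0.64, adjusted p = 5.97e-05), as it did in the 6-library comparison (-0.63, adjusted p = 4.6e-05). The other 15 of 17 alternatives gave no call for Bhlhe41, among them a fit with corticosterone replicates 1 and 2 marked by a separate term (-0.64, adjusted p = 0.151).

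Dbp, a clock output that encodes an activator of D-box genes, fell. Dbp (ENSMUSG00000059824.12, chr7:45705088-45710203, plus strand) was at 7.76, 7.61, 8.68 and 7.30 CPM in corticosterone libraries, against 12.2, 10.8, 11.8 and 11.3 CPM in medium libraries. The groups did not overlap, and Dbp fell to 0.679 of the medium level (log2 fold change -0.56 ± 0.071, SE; adjusted p = 4.04e-05), with -0.52 in the 6-library comparison. Nfil3, which encodes a repressor that binds the same D-boxes, was at 4.3, 3.77, 4.07 and 4.66 CPM in corticosterone libraries, against 1.76, 2.10, 1.66 and 1.36 CPM in medium libraries. It rose 2.44-fold (log2 fold change 1.29, adjusted p = 1.57e-05). The log2 ratio of Dbp to Nfil3 was 0.90 ± 0.198 in corticosterone libraries and 2.76 ± 0.289 in medium libraries (SD, n = 4 each), so the ratio with corticosterone was 0.275 of that in medium (two-sided exact permutation test, p = 0.02857). As each gene alone separated the groups, in opposite directions, this p followed from their levels. Tef, a further D-box activator related to Dbp, fell to 0.85 of the medium level (log2 fold change -0.23, adjusted p = 8.6e-05).

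Levels of different genes were compared as CPM per kb of transcript, with each gene's length weighted by its transcripts. In corticosterone libraries Per1 was the highest clock gene at 29.3 ± 0.534 CPM per kb, followed by Bhlhe40 at 17.0 ± 0.369 (SD, n = 4). Nr1d2, Arntl, Nr1d1 and Cry1 came next at 6.90, 6.59, 6.36 and 6.33 CPM per kb, with ranges that overlapped from each to the next. Dbp (4.59), Cry2 (2.96), Per2 (2.12) and Per3 (0.727) followed with no overlap between neighbours. In medium libraries Bhlhe40 was highest at 8.82 ± 0.413 CPM per kb, then Nr1d2 at 7.42 ± 0.352. Cry1, Dbp and Per1, at 6.87, 6.76 and 6.60 CPM per kb, overlapped from each to the next. Nr1d1 (4.70) followed, then Arntl (3.76) and Cry2 (3.46), which overlapped, and last Per3 (1.5) and Per2 (1.43), which overlapped as well.

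**Figure D3:**
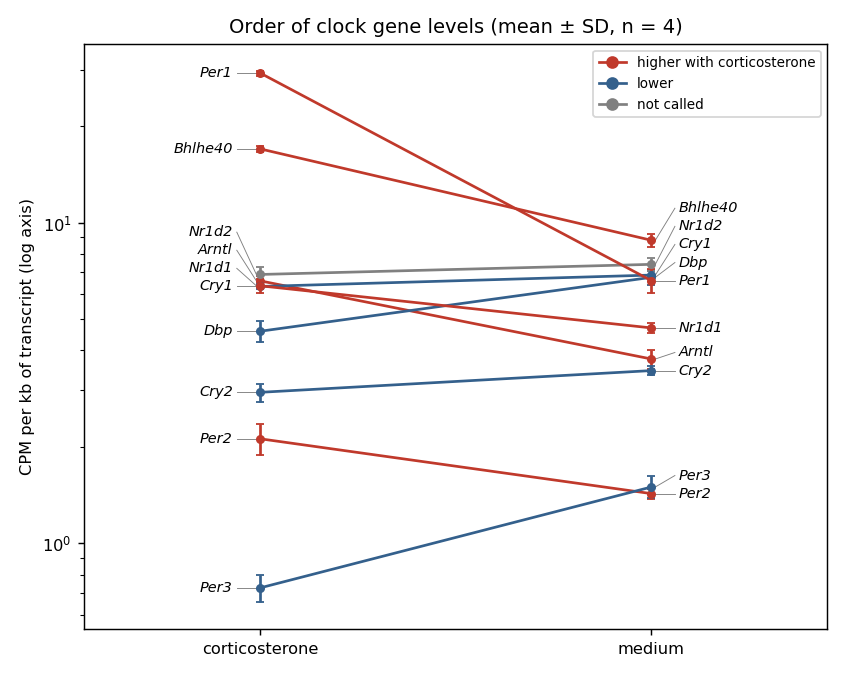
Mean level of each clock gene in CPM per kb of transcript (log y axis) in corticosterone libraries at the left and medium libraries at the right, with bars for the SD of 4 libraries and colour for the call. Per1 stands at the top at 29.3 CPM per kb with corticosterone and amid Cry1 and Dbp at 6.60 CPM per kb in medium.

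The transcripts behind the gene levels were compared as shares of each gene's estimated counts, for the 11 transcripts with at least 10% of their gene where the gene had others to compare. None of the 11 passed a two-sided exact permutation test after adjustment, and the smallest p was 0.05714, for Per3-201 (adjusted p = 0.393). With 4 libraries against 4 this test can give no p below 0.02857, and a lone transcript at that value would not pass adjustment over 11. The outcome therefore does not show that shares were unchanged. Per3-201, the longest coding form, of 21 exons, held 72.2%, 80.6%, 71.8% and 71.6% of Per3 counts in corticosterone libraries, against 88.9%, 84.6%, 79.9% and 87.1% in medium libraries. The groups overlapped through corticosterone replicate 2 and medium replicate 3. Per1-201 held 10.8%, 85.1%, 87.9% and 89.6% of Per1 counts in corticosterone libraries, against 91.4%, 89.8%, 86.4% and 89.7% in medium libraries. Corticosterone replicate 1 alone stood apart, with 45.8% of its Per1 counts given to Per1-203 and 35.6% to Per1-206, forms that start downstream. The Per1 gene level of this library, 134 CPM, was like that of the other corticosterone libraries. Per1-202, which starts upstream at chr11:69095217, held 5.11%, 13.9%, 11.5% and 10.1% in corticosterone libraries, against 8.14%, 9.11%, 13.3% and 7.95% in medium libraries, which overlapped. Dbp-201 held 49.2%, 52.5%, 77.5% and 81.2% of Dbp counts in corticosterone libraries, against 81.5%, 74.5%, 77.2% and 76.0% in medium libraries. Its 2 low values were those of corticosterone replicates 1 and 2, the libraries quantified with another effective length, and the part of that in the shares was not tested. Per2 and Cry1 each had 1 transcript with 100% of the counts in every library, to 3 digits. Shares of overlapping transcripts are estimates of the quantification and not direct counts.

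**Figure D4:**
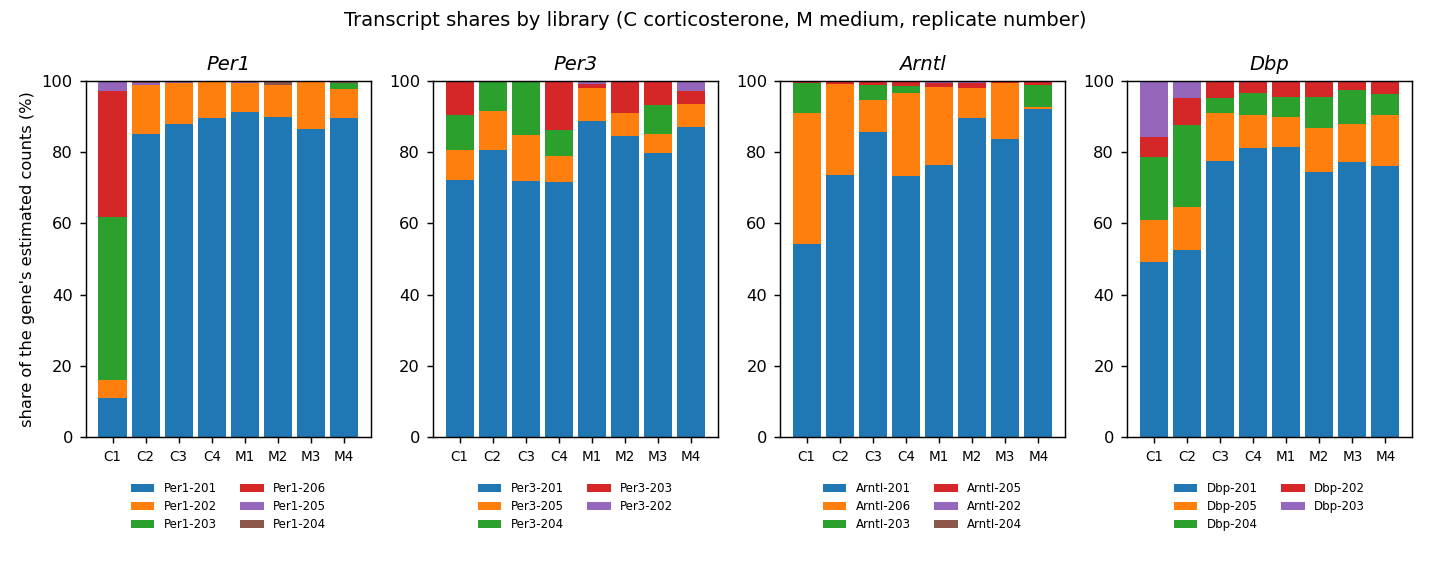
Share of estimated counts (y axis, %) held by each annotated transcript of Per1, Per3, Arntl and Dbp in every library, corticosterone replicates (C1 to C4) at the left and medium replicates (M1 to M4) at the right. In C1 the Per1 counts lie mostly on Per1-203 and Per1-206, while in the other 7 libraries 85.1% to 91.4% lie on Per1-201.

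Of 43 further clock genes listed by role, 40 were tested, 6 rose and 12 fell. At 45% called, this list was near the 40.1% of all genes tested, and its median absolute log2 fold change of 0.084 was below the 0.139 of all genes tested. In the 6-library comparison 6 rose and 14 fell, where 36.4% of all genes tested passed. Of the 13 core and accessory factors, which are not all transcription factors, 10 had enough counts to be tested. Of these 50% passed, against 40.1% of all genes tested. In this class 2 rose (Rorb and Nfil3) and 3 fell, namely Tef, Timeless (0.883 of medium, adjusted p = 2.26e-04) and Cipc, an inhibitor of the activating pair (0.871 of medium, adjusted p = 0.002).

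Kinases and phosphatases set the stability and location of Period and Cryptochrome proteins, and 2 of 8 passed (25%, against 40.1% of all genes tested). Csnk1e, the casein kinase 1 epsilon gene whose product phosphorylates Period proteins, averaged 37.3 ± 1.34 CPM in corticosterone libraries and 50.5 ± 1.23 CPM in medium libraries (SD, n = 4 each), a fall to 0.739 (adjusted p = 7.28e-07). Gsk3b, a kinase of several clock proteins, rose 1.15-fold (adjusted p = 3.58e-05). Ppp1ca, a phosphatase subunit, did not pass (log2 fold change -0.071, adjusted p = 0.0613), but passed in the 6-library comparison (-0.097, adjusted p = 0.0236). Csnk1d, the close relative of Csnk1e, was at 262 ± 13.1 CPM in corticosterone libraries and 267 ± 3.68 CPM in medium libraries (SD, n = 4 each; adjusted p = 0.498), and was named after its values were seen.

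Of 8 ubiquitin ligase and protease genes, 2 rose and 2 fell (50% called, against 40.1% of all genes tested). Fbxl21, an F-box protein that acts on cryptochromes, averaged 5.67 ± 0.302 CPM in corticosterone libraries and 3.16 ± 0.316 CPM in medium libraries (SD, n = 4 each), a 1.80-fold rise (adjusted p = 2.62e-05). Btrc, an F-box protein that marks Period proteins for degradation, fell (log2 fold change -0.22, adjusted p = 5.95e-04), as did Usp7 (-0.087, adjusted p = 0.00732). Fbxw11, a relative of Btrc, passed with a small rise (0.066, adjusted p = 0.0384) that was lost in the 6-library comparison (adjusted p = 0.24).

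Among 11 chromatin and RNA-binding cofactors none rose and 4 fell (36.4% called, against 40.1% of all genes tested). These were Sirt1, a deacetylase (log2 fold change -0.25, adjusted p = 0.00242), Kmt2a, a histone methyltransferase (-0.19, adjusted p = 0.0013), and the RNA-binding partners of Period proteins Sfpq (-0.14, adjusted p = 0.00101) and Nono (-0.13, adjusted p = 8.45e-04). All 3 output genes passed, where 40.1% of all genes tested did. Wee1, a cell cycle kinase under clock control, averaged 44.9 ± 1.08 CPM in corticosterone libraries and 57.9 ± 2.21 CPM in medium libraries (SD, n = 4 each), a fall to 0.776 (adjusted p = 2.8e-06). Nampt, the enzyme that limits NAD salvage, rose 1.12-fold (adjusted p = 2.69e-04). Noct, a rhythmic phosphatase, fell (log2 fold change -0.14, adjusted p = 0.0136), a call lost in the 6-library comparison (-0.064, adjusted p = 0.125).

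**Figure D5:**
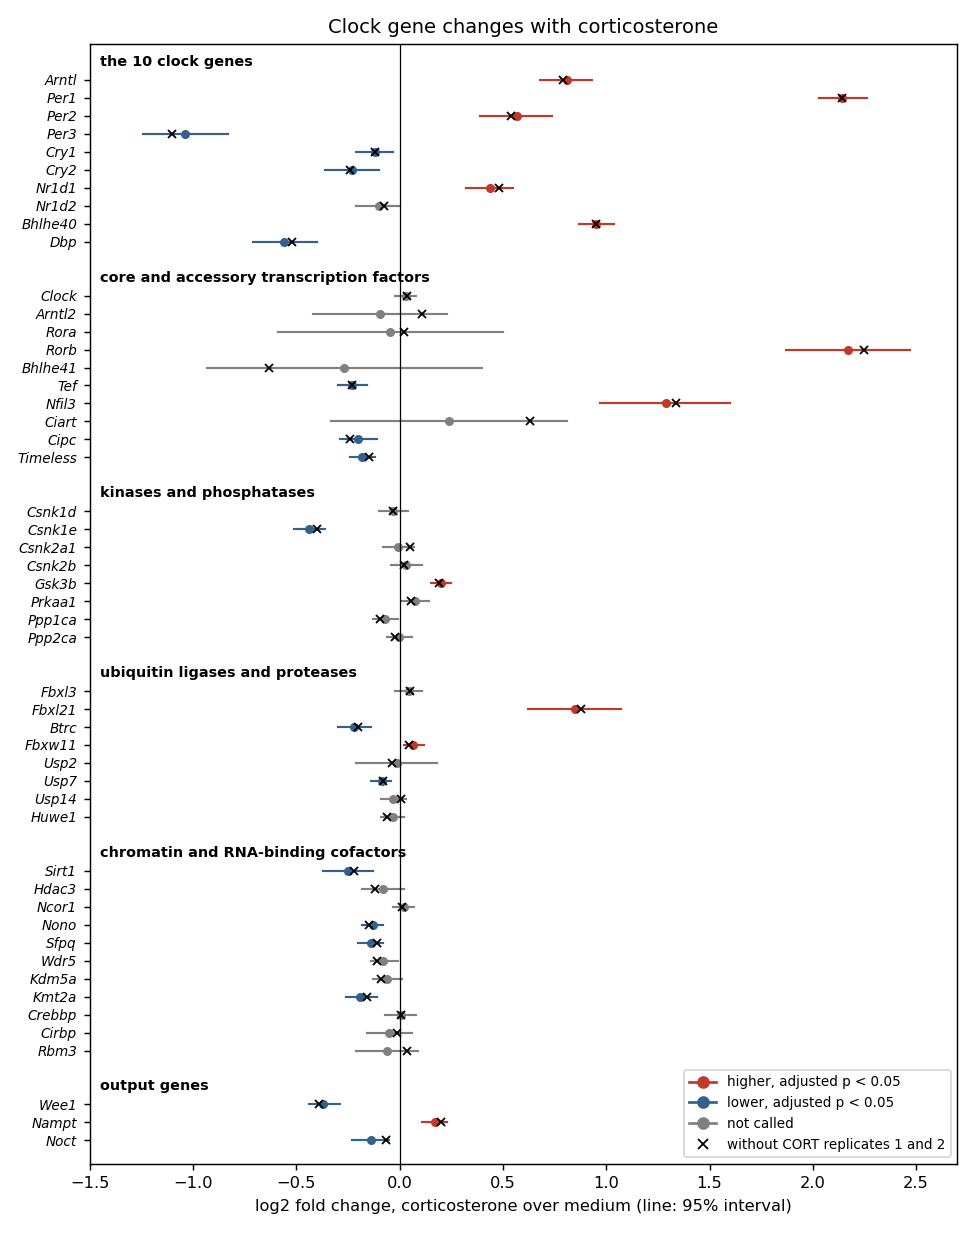
Log2 fold change, corticosterone over medium (x axis), of the 10 clock genes and of the 40 other clock genes tested, by class, with lines for the 95% interval, colour for the call and crosses for the 6 libraries without corticosterone replicates 1 and 2. Per1 (2.14) and Rorb (2.17) lie farthest to the right and Per3 (-1.04) farthest to the left.

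Dbp, Nr1d1 and Nr1d2 share the most sequence with other genes. Dbp shares 539 of its 2993 exonic bases (18%) with Sphk2 on the opposite strand, and 83.1% of its 31-base words occur in no other gene. Nr1d1 shares 263 of 3077 exonic bases (8.55%) with Thra on the opposite strand, and 92.1% of its words are its own. The strand setting of the quantification is not given in the sources used here. Sphk2 was at 41.2 ± 1.28 CPM in corticosterone libraries and 40.8 ± 1.44 CPM in medium libraries (SD, n = 4 each; adjusted p = 0.817). Thra was at 23.1 ± 0.613 CPM in corticosterone libraries and 24.6 ± 0.544 CPM in medium libraries (SD, n = 4 each; adjusted p = 0.103). Neither neighbour passed the test, and the part of their reads in the Dbp and Nr1d1 levels was not tested. Nr1d2 shares words with a gene model that has a clone name, and 90.5% of its words are its own. Cry2 shares 295 of 6320 exonic bases (4.67%) with a gene on the opposite strand, and 95.9% of its words are its own. Bhlhe40, Per3 and Arntl share fewer words with other genes, and for Per1, Per2 and Cry1 100% of the words occur in no other gene.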

How the data were processed

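The labels give 2 groups of 4 poly(A)-selected, directional RNA-seq libraries. Reads were processed with bcl2fastq and kallisto 0.46.1 on mouse build mm10/GRCm38, per the submitters' processing notes. For the transcript index, the strand setting and the summing to genes, the method is not given in the sources used here. Deposited by the authors were estimated counts per gene, not normalized, and, per library, estimated counts and TPM for 119414 transcripts, of which 97.2% matched GENCODE M21 (GRCm38) by identifier. TPM as deposited by the authors depends on the effective length, which differed in corticosterone replicates 1 and 2, so TPM served as an alternative.

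The gene counts were rounded and then fitted in R 4.3.3 with edgeR 4.0.16 (filterByExpr by group, TMM, robust quasi-likelihood F test, group as the single term, Benjamini-Hochberg adjustment over 13272 genes). CPM are per 1000000 counts of the TMM-scaled library. Ratios and transcript shares were compared by two-sided exact permutation tests over the 70 possible group assignments. The method was tested on simulated data in which 12915 of 13113 genes were unchanged, a larger part than in these data. Counts were drawn independently for each gene and library. How corticosterone replicates 1 and 2 stood apart was not modelled, and the figures may not carry over to the real data. The method recovered 18% of 1.2-fold, 67.3% of 1.5-fold, 88% of 2-fold and 87.8% of 4-fold changes, with 8 false calls. A gene that did not pass may thus hold a small change. Alternatives were DESeq2 1.42.0, RLE scaling, library size scaling alone, no filter, a stricter filter (1 CPM in 4 libraries), limma-trend (limma 3.58.1) on log2(TPM + 0.5), a replicate block, a term for or removal of corticosterone replicates 1 and 2, and leaving out each library. No 2 libraries held identical values. Promoter sequences are from RefSeq (GRCm38.p6), and positions count from 1. Named genes are the 10 clock genes, the 3 further clock genes with the smallest p in each class, all that passed in classes with 5 or fewer, and Clock, Npas2, Bhlhe41, Nfil3 and Fkbp5; Sphk2, Thra and Csnk1d were added after their values were seen. The genes, lists and pairs were chosen with earlier results of these data known.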

Additional observations from a re-analysis of the deposited data

Results flagged for a closer look

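A search covered 70 groups of 4 libraries. They were levels, ratios and transcript shares of the clock genes, and levels of Fkbp5 and another glucocorticoid-induced gene. Of the 70 groups, 5 held a library far from the other 3, where chance flags about 1 in 20. Of these, 3 are in corticosterone replicate 1. There Bhlhe41 was at 10.9 CPM, with the other corticosterone libraries at 4.84 to 5.28 CPM, and the log2 ratio of Bhlhe40 to Bhlhe41 was 2.28, with the others at 3.35 to 3.40. The level and the ratio rest on the same Bhlhe41 value, so their flags are not independent. In the same library Per1-201 held 10.8% of Per1 counts, with the others at 85.1% to 89.6%. Per3-201 held 80.6% of Per3 counts in corticosterone replicate 2, with the others at 71.6% to 72.2%. Cry2-201 held 84.8% of Cry2 counts in medium replicate 2, with the other medium libraries at 91.6% to 92.2%.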

How the results depend on the processing

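The 5 rises (Per1, Per2, Arntl, Nr1d1, Bhlhe40) and the falls of Per3 and Dbp kept their direction and call under all 17 alternatives. Cry1 lost its call in 12 of 17, with adjusted p between 0.0528 (without corticosterone replicate 3) and 0.877 (TPM). Cry2 lost its call on TPM (adjusted p = 0.866), and Nr1d2 passed with library size scaling alone (-0.14, adjusted p = 0.0468). On TPM, clock members lower numbered 2 and other clock genes lower also 2, Timeless turned to 0.027 and Noct to 0.17 on the log2 scale, and over all genes 1055 rose and 656 fell, against 2590 and 2737 in the main comparison. With no filter and with DESeq2, 20.6% and 20.5% of 24332 genes were called. Leaving out 1 library at a time gave 5 to 5 clock genes higher and 3 to 4 lower, 5 to 7 other clock genes higher and 11 to 14 lower. The differences in log2 ratio ranged over 1.52 to 1.63 (Per1/Per2), 3.13 to 3.25 (Per1/Per3), 1.56 to 1.64 (Per2/Per3), 0.08 to 0.13 (Cry1/Cry2), 0.51 to 0.58 (Nr1d1/Nr1d2), 0.75 to 0.80 (Arntl/Clock), 1.22 to 1.59 (Bhlhe40/Bhlhe41) and -1.99 to -1.76 (Dbp/Nfil3). The cause of these changes was not tested.

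Replicate numbers are shared between groups, but same-numbered libraries did not deviate together (correlations -0.0374, 0.0302, -0.0527 and -0.0507). With a replicate block, 5 clock genes were higher and 3 lower, 5 other clock genes were higher and 12 lower, and 2391 genes rose and 2522 fell over all. Cry1 (adjusted p = 0.0713) was the clock gene whose call changed. Depth limits the lower genes, as Per3 had 105 to 439, Per2 161 to 449 and Dbp 202 to 575 counts per library. Of the further clock genes named, Rorb had 23 to 63 and Nfil3 33 to 83 counts per medium library.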
